A study of Arabidopsis thaliana with 12 samples.

Results

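Ribosomal protein genes of the nucleus were examined in Arabidopsis thaliana leaves of 2 genotypes at 14 d and 26 d of age: Col, the wild type, and chlorella-1, which is mutated in a gene that yields a long noncoding RNA. The genes were the protein-coding rows of chromosomes 1 to 5 whose description in the deposited table holds the words ribosomal protein. Of 38288 named genes in the table, 344 matched, and the 250 with the highest read count summed over all libraries were taken. They were thus chosen by their summed count, which is given as a description only. It ran from 1543 to 147683 counts per gene, with a median of 7579. At the limit, AT5G46160 and AT5G64670 came in with 1544 and 1543 counts, and AT2G20450 and AT4G22380 stayed out with 1528 and 1494. The other 94 matching rows included 18 with no counts at all.

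The 4 groups were Col at 14 d, chlorella-1 at 14 d, Col at 26 d and chlorella-1 at 26 d, with 3 libraries each. RNA was total RNA of leaves from which ribosomal RNA had been removed. The labels call the mutant a knockout and say nothing of further alleles, and a CHLORELLA gene is named neither in the table nor in the annotation, so the genotypes are as labelled. The labels do not say whether the libraries of a group came from separate plants, so p-values measure the spread between these libraries, which may be technical.

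A leaf cell builds ribosomes in 3 compartments: the cytosol, the plastids and the mitochondria. Every protein of the cytosolic ribosome is encoded in the nucleus, usually by a small family of near-identical paralogs, whereas organelle ribosomes combine nuclear-encoded proteins, imported after translation, with proteins encoded by the organelle itself. Ribosomes hold most of the RNA of a cell, and their genes are most active in young, growing cells.

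The description named the compartment for few rows and did not tell it for 229 of the 250, so the class was set gene by gene from the family name and the annotation. This gave 153 proteins of the cytosolic ribosome, 91 of the large and 62 of the small subunit. Another 34 belong to the plastid ribosome, with 21 in its large and 13 in its small subunit, and 34 to the mitochondrial ribosome. Of the rest, 22 carry a ribosomal protein domain or name but are not ribosomal subunits, 4 were uncertain, and 3 are copies of mitochondrial genes in the insertion on chromosome 2. All 250 passed the filter on low counts. In 23 of them over 10% of the exon sequence, in windows of 31 bases, also occurs elsewhere in the genome, so reads could be shared with a copy, and 56 overlap a gene on the other strand.

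Libraries held 45120547 to 70452171 counts, of which nuclear genes took 26.9% to 49.4%. The second and the third chlorella-1 libraries at 26 d stood apart, with scaling factors of 0.782 and 1.29 against 0.884 to 1.11 in the others; the third also held the fewest counts and the highest nuclear share. Leaf mesophyll markers, a sign of the labelled tissue, were at 12617 to 15304 CPM in sum in 14-day Col, at 12790 to 13233 in the 14-day mutant, at 3729.8 to 6265 in 26-day Col and at 393 to 760.4 in the 26-day mutant (3 genes; CPM is the read count of a gene per 1000000 counts of the scaled library). Dividing cell markers (13 genes, of which 12 were tested) fell in Col from 25.9 to 30.7 CPM in sum at 14 d to 4.22 to 6.35 CPM at 26 d, with all 12 called lower; their sum was 16.3 to 21.5 CPM in the 14-day mutant and 3.34 to 4.25 in the 26-day mutant. Floral organ markers stayed at or below 2.58 CPM in sum in every library, but all 5 pollen markers were higher in the mutant than in Col of the same age at 26 d. All 5 were at 0 in 14-day Col, and their sum was at most 0.0713 CPM in the 14-day mutant, at most 0.306 CPM in 26-day Col, and 14.0 to 57.5 CPM in the 26-day mutant. Guard cell markers (3 genes, of which 2 were higher in the mutant at 26 d) summed to 9.19 to 9.80 CPM in 14-day Col, 8.47 to 9.46 in the 14-day mutant, 5.78 to 8.95 in 26-day Col and 35.1 to 40.3 in the 26-day mutant. Phloem markers (2 genes, of which 1 was higher in the mutant at 26 d and both fell with age in Col) summed to 123 to 126 CPM in 14-day Col, 142 to 173 in the 14-day mutant, 66.4 to 85.4 in 26-day Col and 83.4 to 160.01 in the 26-day mutant. The part of these shifts in the results below was not tested. In RNA from whole leaves, fewer cells of a type and less RNA per cell cannot be told apart.

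The nuclear messages for all 3 kinds of ribosome took their smallest share of nuclear counts in the 26-day mutant. The 153 cytosolic genes together took 0.930% ± 0.0453 of the counts of nuclear genes in 14-day Col, 0.718% ± 0.0251 in the 14-day mutant, 0.995% ± 0.0484 in 26-day Col and 0.307% ± 0.0551 in the 26-day mutant (SD, n = 3). In Col the libraries of both ages overlap, from 0.880% to 0.968% at 14 d and from 0.956% to 1.05% at 26 d. On the CPM scale, which divides by all counts, the median cytosolic gene of Col went from 16 to 13.6 CPM per kb; nuclear genes as a whole took 30.7% to 34% of counts in 14-day Col and 27.1% to 28.1% at 26 d. The mutant libraries lay below those of Col at both ages. They ran from 0.692% to 0.742% at 14 d and from 0.244% to 0.340% at 26 d, where the second library is the lowest. Nuclear genes took 38.8% to 49.4% of counts in the 26-day mutant, so shares of nuclear counts are divided there by a larger part of the library. On the CPM scale the median cytosolic gene stood at 13.6 CPM per kb in 26-day Col and 6.68 in the 26-day mutant.

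The 34 plastid genes together took a smaller share at 26 d than at 14 d in both genotypes, and the smallest in the 26-day mutant. They held 0.679% ± 0.0464 of nuclear counts in 14-day Col, 0.494% ± 0.0509 in the 14-day mutant, 0.302% ± 0.0561 in 26-day Col and 0.0472% ± 0.00988 in the 26-day mutant. Set against the cytosolic genes, there were 73.0 ± 1.61 plastid counts per 100 cytosolic counts in 14-day Col, 68.8 ± 6.62 in the 14-day mutant, 30.5 ± 6.71 in 26-day Col and 15.3 ± 0.532 in the 26-day mutant. Of these, only the 14 d groups overlap. The mitochondrial genes held 0.0420% ± 0.00122, 0.0373% ± 0.00168, 0.0475% ± 0.00406 and 0.0165% ± 0.00594 in the same order, and per 100 cytosolic counts the 4 means lay between 4.52 and 5.25. No test was made on these sums, and they leave out the cytosolic L10 gene SAG24, which is described below.

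**Figure D1:**
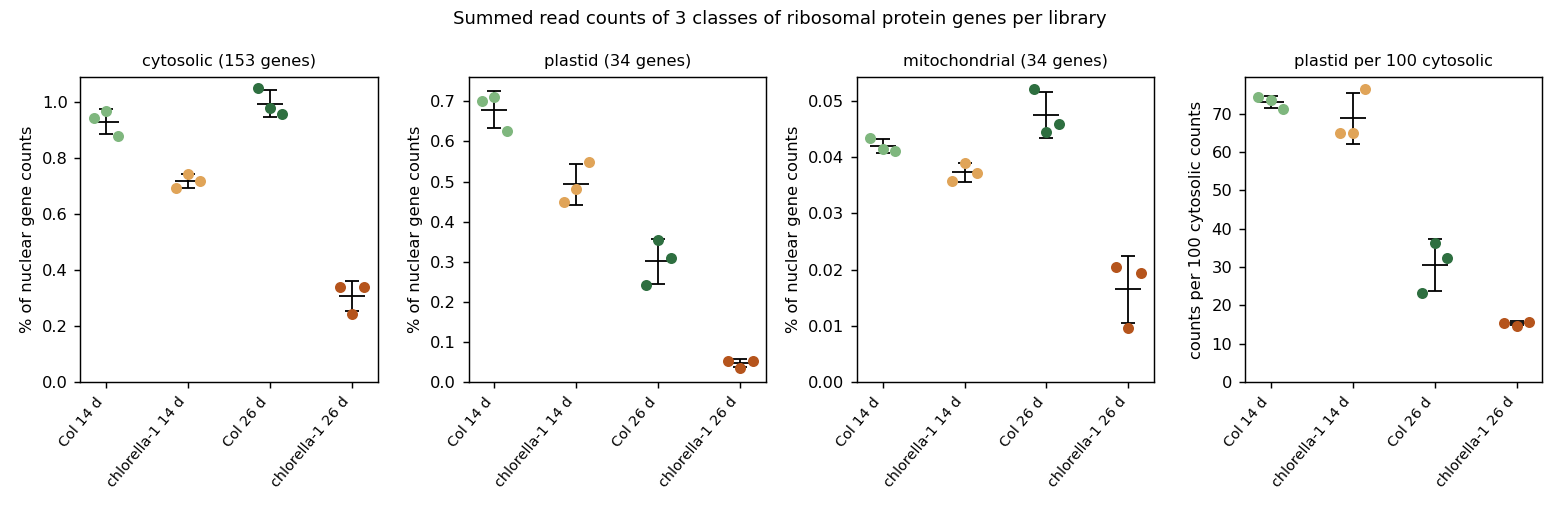
Summed read counts of the cytosolic, plastid and mitochondrial ribosomal protein genes in each library, as a percentage of all counts of nuclear genes, and the plastid sum per 100 cytosolic counts. Points are the 3 libraries of a group and bars the mean ± SD. The chlorella-1 libraries at 26 d are the lowest in every class, and the plastid sum per 100 cytosolic counts is 15.3 there against 73.0 in 14-day Col.

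Levels of different genes are compared per kilobase of exon. The median gene stood at 16 CPM per kb in the cytosolic class, 51.7 in the plastid class and 2.92 in the mitochondrial class in 14-day Col. The highest plastid level was that of SSR16 (AT4G34620), a small-subunit S16 protein, at 234 CPM per kb, and the highest cytosolic level that of the L19 gene AT1G02780, at 72.7 CPM per kb. In chlorella-1 at 26 d the medians were 6.68, 3.65 and 1.63 CPM per kb, so that the plastid class stood below the cytosolic one. Libraries of a group differed by a median coefficient of variation of 7.85% to 17.2% in the cytosolic class, 10.6% to 28% in the plastid class and 10.8% to 36.7% in the mitochondrial class.

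Genes were tested across the whole table with edgeR's quasi-likelihood test on all 12 libraries, and a gene was called at an adjusted p under 0.05 over 20398 genes tested. At 26 d, 209 of the 250 genes were lower in chlorella-1 than in Col and 10 were higher, while 31.8% of all genes tested were lower and 31.5% higher. The median log2 fold change was -1.05, against -0.11 for all genes tested. With age, 87 fell and 21 rose in Col, where 20.2% of all genes fell and 19.3% rose (medians -0.27 and 0.01), and 192 fell and 14 rose in chlorella-1, where 36% fell and 35.2% rose (medians -0.90 and -0.11). The change with age was more negative in chlorella-1 than in Col for 105 genes and more positive for 12, against 21% and 21.2% of all genes (medians -0.64 and -0.11). With DESeq2 size factors the median of all genes at 26 d moved from -0.11 to 0.02 and that of the 250 from -1.05 to -0.92. These comparisons share libraries with one another. Without the second chlorella-1 library at 26 d, 205 were lower and 10 higher at 26 d, and without the third 201 and 12. The Col age counts became 102 lower and 35 higher without the second, and 90 and 26 without the third. They were 75 lower and 12 higher without the third Col library at 14 d, and 65 lower and 14 higher without the first; in a fit of only the Col libraries 98 fell and 42 rose.

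**Figure D2:**
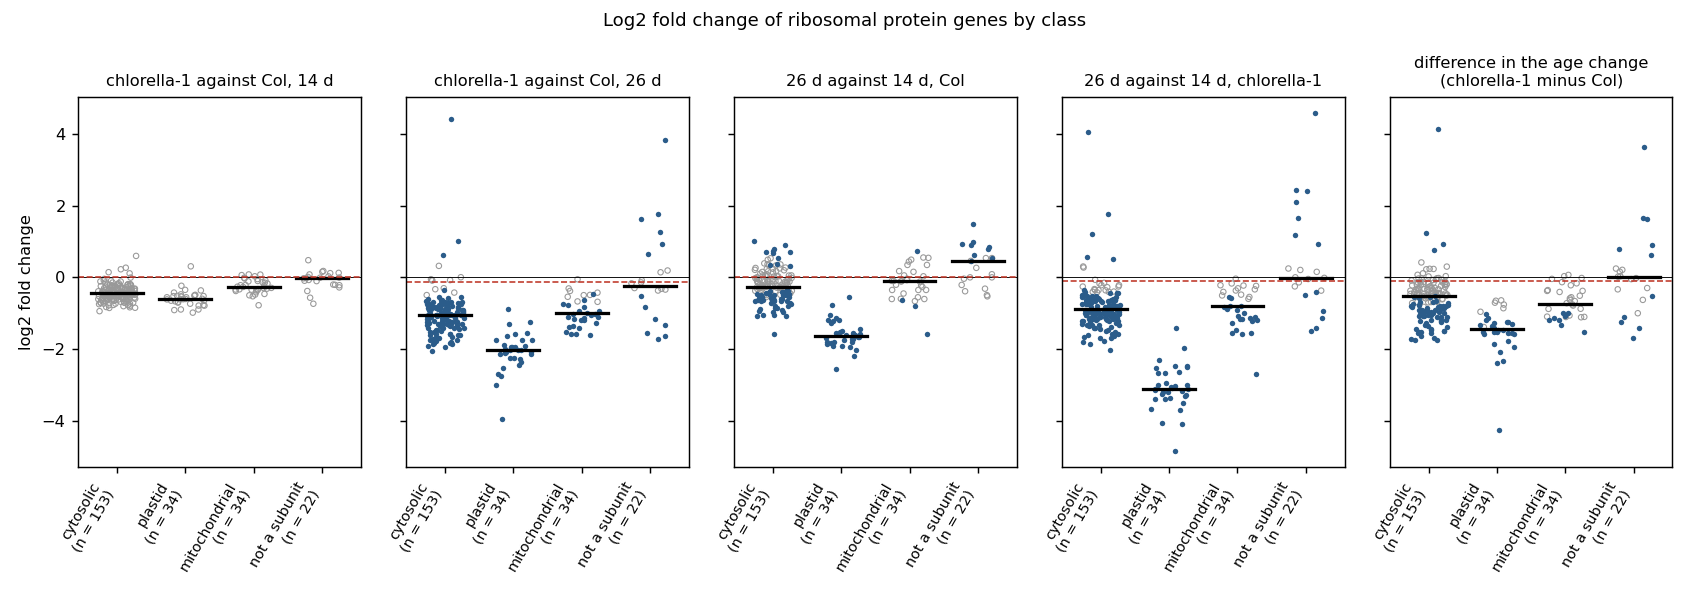
Log2 fold change of each ribosomal protein gene by class in 5 comparisons. Filled points passed an adjusted p of 0.05 in edgeR, open points did not, black bars are class medians and the dashed line is the median of all genes tested. At 26 d the plastid median is -2.03 and the cytosolic and mitochondrial medians are -1.04 and -1.0.

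Genes for the plastid ribosome moved in 1 direction. All 34 fell with age in Col (median -1.63, from -2.54 to -0.56), all 34 fell with age in chlorella-1 (median -3.11, from -4.81 to -1.41), and all 34 were lower in the mutant at 26 d (median -2.03, from -3.95 to -0.88). Of all genes tested, 20.2% fell with age in Col, 36% fell in chlorella-1 and 31.8% were lower in the mutant at 26 d. For 26 of the 34 the fall with age differed between the genotypes, being steeper in chlorella-1 for each of the 26 (median of the 34 -1.44). The age change was more negative in chlorella-1 for 21% of all genes. The fall of AT3G63490 with age in Col did not pass without the first Col library at 14 d (-0.72, adjusted p = 0.0571), the second (-0.72, adjusted p = 0.0587) or the first Col library at 26 d (-0.62, adjusted p = 0.0834). That of AT5G24490 (-0.56, adjusted p = 0.0356) did not pass without any 1 of the 3 Col libraries at 14 d, the first or the third Col library at 26 d, or the first or the third mutant library at 26 d, where the adjusted p ran from 0.0511 to 0.185. It also did not pass with no filter on low counts (-0.54, adjusted p = 0.0703), with the replicate block (-0.56, adjusted p = 0.0614) or with the plastid transcript psbA left out (-0.46, adjusted p = 0.0723). Large-subunit and small-subunit genes had medians of -2.02 and -2.07 at 26 d.

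SSR16 (chr4:16534855-16536224 in the build TAIR10.1, minus strand), the most abundant of them per length in 14-day Col, had 159, 179 and 156 CPM in the libraries of Col at 14 d and 115, 119.6 and 134 in the 14-day mutant. At 26 d it had 58.5, 81.0 and 78.4 CPM in Col and 11, 10.8 and 10.6 in chlorella-1. The mutant libraries at 26 d lie within a narrow band far under every other library. The log2 fold change between genotypes at 26 d was -2.75 ± 0.16 (adjusted p = 3.69e-07), and the difference in the age change was -2.32 ± 0.22 (adjusted p = 2.47e-05). RPS1 (AT5G30510), the protein that helps to bring messenger RNA to the small subunit, had 167, 166 and 145 CPM in 14-day Col, 64.2, 93.0 and 76.6 in 26-day Col and 29.7, 14.5 and 25.6 in the 26-day mutant. Here too the 3 groups do not overlap, and the second mutant library is the lowest. Between genotypes at 26 d its change was -1.74 ± 0.25 (adjusted p = 0.000104).

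Among large-subunit proteins, RPL4 (AT1G07320), which lines the peptide exit tunnel in bacterial ribosomes, had 76.2, 72.7 and 57.6 CPM in 14-day Col, 17, 28.4 and 19.5 in 26-day Col and 2.18, 4.37 and 1.71 in the 26-day mutant. Its change between genotypes at 26 d was -2.99 ± 0.34 (adjusted p = 1.89e-05). The steepest fall with age in Col was that of RPL15 (AT3G25920), from 111 ± 16.6 to 19.1 ± 7.88 CPM (-2.54 ± 0.46, adjusted p = 0.00131); the gene overlaps another on the other strand. PRPL11 (AT1G32990), part of the stalk base where translation factors bind, fell with age in Col from 32 ± 2.98 to 9.30 ± 2.71 CPM and was at 2.28 ± 0.425 in the 26-day mutant (-2.03 ± 0.23 between genotypes, adjusted p = 2.09e-05). GHS1 (AT3G27160), the S21 protein whose loss causes glucose hypersensitivity, was at 17.1 ± 5.97 CPM in Col and 4.32 ± 0.490 in the 26-day mutant (-1.98 ± 0.25, adjusted p = 3.96e-05). The smallest change of the class was that of the L1 gene AT3G63490, at 45, 55.3 and 56.3 CPM in Col and 25.2, 20.2 and 39.7 in the 26-day mutant (-0.88 ± 0.22, adjusted p = 0.00490).

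AT5G24490 (chr5:8365601-8367460, plus strand) stood apart in the plastid class. It is related to bacterial factors that hold idle ribosomes in an inactive form, and is counted as a plastid-specific ribosomal protein rather than a structural one. Its libraries held 123, 122 and 108 CPM in 14-day Col, 157, 111 and 169 in the 14-day mutant, 62.2, 90.8 and 87.2 in 26-day Col and 5.33, 5.42 and 4.81 in the 26-day mutant. At 14 d the genotypes overlap and most mutant libraries lie on the high side, while at 26 d the mutant libraries lie far below all others. Its change between genotypes was 0.31 ± 0.19 at 14 d (adjusted p = 0.721) and -3.95 ± 0.21 at 26 d (adjusted p = 3.16e-07), the lowest of the class, and the difference in the age change was -4.26 ± 0.28 (adjusted p = 5.78e-06). The gene overlaps another on the other strand. The plot of the L10 genes and AT5G24490 shows each library.

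The plastid genome's own ribosomal protein genes, the partners of these nuclear genes in the same particle, stand in 24 rows of the table, with rpl2, rpl23 and rps7 of the inverted repeat listed in both copies. All 24 were lower in the 26-day mutant (median -1.67) and 23 fell with age in Col (median -1.23). Of 18 nuclear genes for plastid translation factors, 17 were lower in the mutant at 26 d and none higher (median -1.44). With age in Col 10 of the 18 fell (median -0.76). Among all genes tested, 31.8% were lower in the mutant at 26 d and 20.2% fell with age in Col.

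Genes for the cytosolic ribosome were lower in the 26-day mutant across both subunits: 83 of 91 large-subunit genes and 57 of 62 small-subunit genes were lower, with 3 and 0 higher. Of all genes tested, 31.8% were lower and 31.5% higher. The medians were -1.04 in both subunits. With age in Col, 50 fell, 11 rose and 92 were not called (median -0.26), where 20.2% of all genes fell and 19.3% rose. In chlorella-1 130 fell and 5 rose (median -0.88), where 36% of all genes fell and 35.2% rose. For 66 the change with age was more negative in chlorella-1 and for 4 more positive, against 21% and 21.2% of all genes. Without the 12 cytosolic genes that have over 10% repeated exon sequence, 128 of 141 were lower at 26 d and 3 higher. The sum of large-subunit counts per 100 small-subunit counts was 143 ± 1.71 in 14-day Col and 139 ± 1.5 in the 14-day mutant. At 26 d it was 134 ± 1.8 in Col and 165 ± 14.4 in the mutant. These sums leave out the large-subunit L10 gene SAG24 (AT1G66580), which the rule did not take. Its mean was 74.4 CPM in 26-day Col and 350 CPM in the 26-day mutant, so the ratio holds only for the genes taken.

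Among the genes with the lowest log2 fold changes at 26 d were RPS15A (AT1G07770) of the small subunit and the L13a gene AT3G24830 of the large one. RPS15A, with 10.6% of its windows repeated elsewhere, went from 19.4, 21.2 and 22.5 CPM in Col to 5.50, 4.19 and 5.71 in chlorella-1 (-2.03 ± 0.16, adjusted p = 1.64e-06). AT3G24830 went from 34.9, 38.7 and 31 to 8.79, 8.99 and 10.2 CPM (-1.9 ± 0.13, adjusted p = 6.62e-07). In both genes every mutant library lies below every Col library. The S19 gene AT3G02080 was at -1.86, L36 (AT5G02450) at -1.84 and L6 (AT1G74050) at -1.82.

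Several cytosolic proteins are known from their mutants or from signalling. The L19 gene AT1G02780, with the most counts of the class, had 80.6, 79.0 and 79.3 CPM in Col and 49.0, 34.2 and 42.2 in the 26-day mutant (-0.93 ± 0.16, adjusted p = 0.000341) and did not pass with age in Col (-0.02). STV1 (AT3G53020), an L24 protein that lets ribosomes reinitiate after short upstream reading frames, changed by -1.08 ± 0.15 (adjusted p = 0.000102). PFL (AT1G22780), an S18 protein whose loss gives pointed first leaves, changed by -1.22 ± 0.13 (adjusted p = 9.62e-06). The L23a genes RPL23AA (AT2G39460) and RPL23AB (AT3G55280), at the mouth of the exit tunnel, changed by -0.84 and -0.72, with adjusted p of 0.000459 and 0.00416. Among 9 P0 to P3 proteins of the stalk that recruits elongation factors, 8 were lower at 26 d and none higher. That share is near that of the whole cytosolic class, while 31.8% of all genes tested were lower. The P0 gene AT3G09200 fell with age in Col from 77.9 ± 7.21 to 50.8 ± 4.58 CPM (-0.62 ± 0.14, adjusted p = 0.00488). It was at 25.3 ± 3.20 CPM in the 26-day mutant.

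Promoters of the class are shown because its genes moved together and because 2 short motifs are known from plant ribosomal protein promoters. The telo box was searched as AACCCTA and site II as TGGGCC or TGGGCT, on both strands, in the 250 bases before the annotated start of each gene (RefSeq annotation of TAIR10.1). TGGGCC reads GGCCCA on the other strand, so the matches of both strands can overlap. Site II was found in 71.9% of the cytosolic windows (110 of 153), 38.2% of the plastid, 50% of the mitochondrial and 19.2% of all 27443 nuclear protein-coding genes. The telo box was found in 26.1% of the cytosolic windows (40 of 153), 14.7% of the plastid, none of the 34 mitochondrial and 6.56% of all. Both motifs were present in 31 cytosolic windows, 20.3%, against 1.79% of all. A match is a description of these letters and not a binding site. The windows below read 5′ to 3′ on the strand of the gene, with motif matches in capitals. The S8 and S9 genes are examples with both motifs, SAC52 and RPL10B are L10 genes that were higher in the mutant, and the plastid gene AT5G24490 has neither motif. The windows of the S8 gene, SAC52 and RPL10B overlap a neighbouring gene (AT5G20300, AT1G14315 and AT1G26900).
AT5G20290 (S8), chr5:6853107-6853356, minus strand: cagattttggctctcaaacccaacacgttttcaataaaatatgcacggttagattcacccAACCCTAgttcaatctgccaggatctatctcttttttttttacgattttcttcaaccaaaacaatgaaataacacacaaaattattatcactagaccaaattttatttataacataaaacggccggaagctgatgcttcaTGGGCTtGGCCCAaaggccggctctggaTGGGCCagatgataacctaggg
AT5G15200 (S9), chr5:4936430-4936679, minus strand: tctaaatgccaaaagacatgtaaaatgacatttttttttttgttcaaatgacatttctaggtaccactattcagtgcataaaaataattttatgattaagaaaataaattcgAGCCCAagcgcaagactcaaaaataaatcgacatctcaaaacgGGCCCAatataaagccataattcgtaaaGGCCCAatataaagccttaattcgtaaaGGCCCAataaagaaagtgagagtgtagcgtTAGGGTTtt
AT1G14320 (SAC52), chr1:4887864-4888113, plus strand: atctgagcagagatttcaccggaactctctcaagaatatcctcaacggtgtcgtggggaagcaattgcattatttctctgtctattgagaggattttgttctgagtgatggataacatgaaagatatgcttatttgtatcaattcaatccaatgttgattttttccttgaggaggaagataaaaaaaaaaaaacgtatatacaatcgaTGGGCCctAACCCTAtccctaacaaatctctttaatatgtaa
AT1G26910 (RPL10B), chr1:9321400-9321649, plus strand: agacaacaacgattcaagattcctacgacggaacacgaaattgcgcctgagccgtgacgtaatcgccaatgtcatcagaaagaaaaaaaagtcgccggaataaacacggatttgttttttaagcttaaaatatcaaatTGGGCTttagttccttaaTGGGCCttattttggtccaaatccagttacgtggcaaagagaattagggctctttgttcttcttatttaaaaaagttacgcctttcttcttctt
AT5G24490, chr5:8365351-8365600, plus strand: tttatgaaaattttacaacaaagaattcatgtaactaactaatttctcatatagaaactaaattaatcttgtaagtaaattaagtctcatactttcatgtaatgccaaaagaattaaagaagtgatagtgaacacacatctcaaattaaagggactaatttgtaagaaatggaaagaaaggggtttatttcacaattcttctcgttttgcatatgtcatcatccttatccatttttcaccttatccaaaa

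The S8 gene, with 1 telo box and 3 site II matches, had 63.2, 62.6 and 52.5 CPM in Col and 18.4, 17.5 and 18.7 in the 26-day mutant (-1.71 ± 0.14, adjusted p = 1.99e-06). The S9 gene, with 1 telo box and 4 site II matches, had 45.6, 51.9 and 46.9 CPM in Col and 18.6, 17.5 and 18.7 in chlorella-1 (-1.4 ± 0.12, adjusted p = 3.65e-06). For both, all Col libraries lie above all mutant libraries. Across the cytosolic class the median log2 fold change at 26 d was -1.24 for the 31 genes with both motifs, of which 30 were lower and 1 higher, -1.02 for 79 with site II only, -1.18 for 9 with the telo box only and -0.86 for 34 with neither. The ranges overlap widely, and no test was made of the difference.

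**Figure D3:**
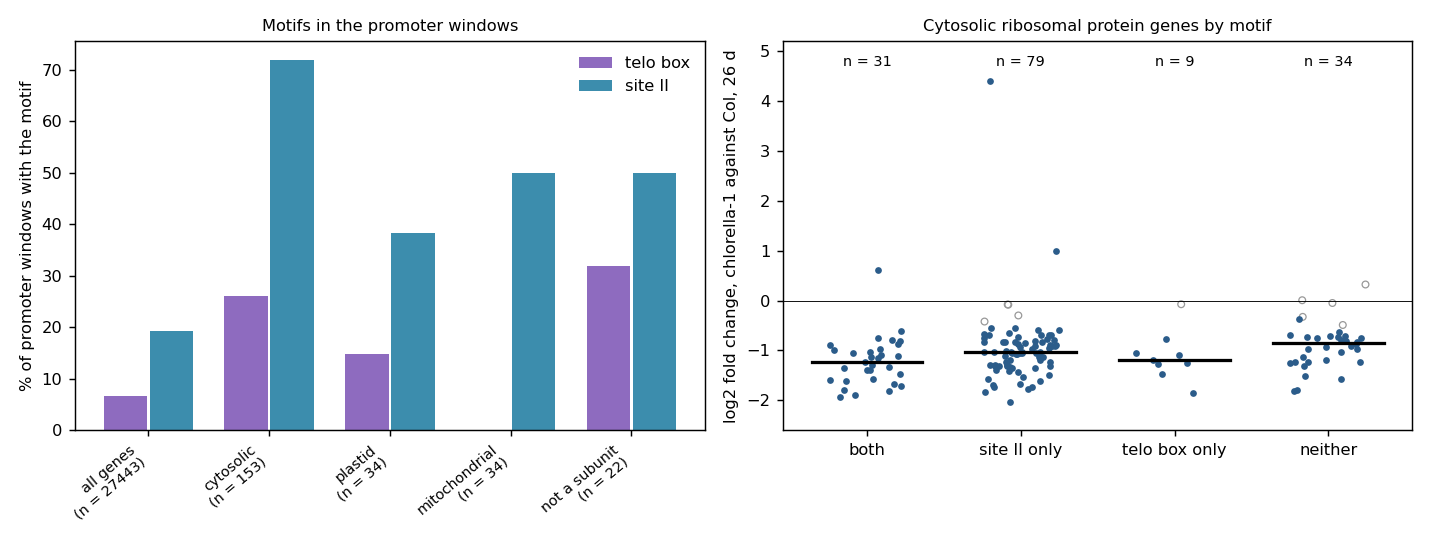
Left, share of promoter windows that hold a telo box or a site II motif, for all nuclear protein-coding genes and by class. Right, log2 fold change of the cytosolic genes between chlorella-1 and Col at 26 d by motifs present, with filled points past an adjusted p of 0.05 in edgeR and bars at the median. Site II was in 71.9% of cytosolic windows and 19.2% of all, and medians run from -1.24 with both motifs to -0.86 with neither.

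Paralogs of 1 protein did not always move together. The class holds 57 families with at least 2 members here, 141 genes in all. At 26 d every member was lower in 45 of them, and only the L18a family had both a higher and a lower member, through a gene of uncertain class described below. With age in Col, members of 4 families moved in opposite directions and passed the test both ways: L18a, L7, S19 and S3a. In L7 AT3G13580 rose (0.74 ± 0.16, adjusted p = 0.00368) and AT2G01250 fell (-0.66 ± 0.13, adjusted p = 0.00232). In S19 AT5G61170 fell (-0.88) and AT3G02080 rose (0.39 ± 0.12, adjusted p = 0.0223), but the rise did not pass without the first 14 d library of Col (0.39, adjusted p = 0.0641), the third (0.34, adjusted p = 0.0937) or the second 26 d library of Col (0.31, adjusted p = 0.0909). The fall of AT2G34480 in L18a (-0.38, adjusted p = 0.0408) was not called with DESeq2 (-0.39, adjusted p = 0.0599), nor without any 1 of the 6 Col libraries, where the adjusted p ran from 0.0587 to 0.182. It was also not called with other scalings, no filter, the replicate block or psbA left out. The same held without any 1 of the mutant libraries at 14 d or without the first at 26 d. In these fits the adjusted p ran from 0.0514 to 0.114. The gap between the highest and the lowest log2 fold change in a family had a median of 0.56 at 26 d and 0.68 with age in Col. The pairs below were chosen for wide gaps, so their shares are given with no test.

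The S3a pair, proteins of the small subunit near the messenger RNA exit, gave the widest gap with age in Col. AT4G34670 had 30.2, 31.2 and 24.3 CPM in 14-day Col, 52.3, 40.8 and 45.4 in 26-day Col and 14.4, 10.4 and 15.6 in the 26-day mutant. AT3G04840 had 39.8, 35.5 and 29 CPM in 14-day Col, 18, 17.7 and 14.5 in 26-day Col and 11.3, 12.7 and 10.5 in the 26-day mutant. So in Col the first rose with age (0.69 ± 0.17, adjusted p = 0.00794) and the second fell (-1.06 ± 0.16, adjusted p = 0.000434), with no overlap between ages in either. At 26 d the mutant was lower than Col by a log2 fold change of -1.77 for the first and -0.54 for the second, where the latter did not pass without the third mutant library (-0.41, adjusted p = 0.0715) or with DESeq2 (-0.40, adjusted p = 0.0667). It also did not pass with DESeq2 size factors in edgeR (-0.39, adjusted p = 0.0833) or in a fit of only the groups compared with the replicate block (-0.53, adjusted p = 0.0688). The share of AT4G34670 in the counts of the pair was 45.2% ± 1.85 in 14-day Col and 73.3% ± 3.20 in 26-day Col. In the mutant it was 59.0% ± 3.95 at 14 d, above every Col library of that age. At 26 d it was 53.6% ± 7.66 in the mutant, whose ages overlap.

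S6 is the protein of the small subunit that the kinase S6K phosphorylates under control of TOR, the growth regulator that senses nutrients. Its EMB3010 copy (AT5G10360) had 47.6, 43.1 and 37.7 CPM in 14-day Col, 53.0, 52.7 and 42.0 in 26-day Col and 21.5, 18.1 and 18.4 in the 26-day mutant, with a log2 fold change of -1.35 ± 0.15 between genotypes at 26 d (adjusted p = 1.75e-05). The other copy, RPS6 (AT4G31700), had 28.3, 26.0 and 20.6 CPM in 14-day Col, 14.6, 17.2 and 13.7 in 26-day Col and 10.3, 12.4 and 7.59 in the 26-day mutant, with a change of -0.59 ± 0.19 (adjusted p = 0.0164). For the first copy the Col libraries of both ages overlap and the mutant lies below them, while for the second the Col libraries at 26 d already lie below those at 14 d. The change of RPS6 between genotypes did not pass without the second Col library at 26 d (-0.50, adjusted p = 0.0587), the first mutant library at 26 d (-0.56, adjusted p = 0.0596) or the third (-0.35, adjusted p = 0.116), nor with DESeq2 (-0.44, adjusted p = 0.101). It also did not pass with DESeq2 size factors in edgeR (-0.43, adjusted p = 0.108). In fits of only the groups compared it was -0.58 (adjusted p = 0.0688), and -0.60 with the replicate block (adjusted p = 0.0590). EMB3010 held 63.2% ± 1.21 of the counts of the pair in 14-day Col and 76.4% ± 1.72 at 26 d. In the mutant it held 70.2% ± 0.700 at 14 d and 65.9% ± 5.91 at 26 d, which overlap.

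In the S19 pair, AT3G02080 went from 26.9, 31.5 and 27 CPM in Col to 7.22, 8.10 and 8.16 in the 26-day mutant (-1.86 ± 0.12, adjusted p = 6.44e-07) and AT5G61170 from 5.84, 6.28 and 5.71 to 3.51, 2.47 and 2.78 (-1.02 ± 0.17, adjusted p = 0.000312). The share of AT3G02080 was 66.7% ± 2.79 in 14-day Col and 82.7% ± 0.625 at 26 d. In the mutant it was 74.5% ± 2.11 at 14 d and 72.9% ± 4.89 at 26 d, which overlap. The L7a paralogs differed in the mutant. AT2G47610 had 15.3, 15.7 and 13.9 CPM in Col and 16.4, 25.7 and 14.3 in the 26-day mutant, which overlap (0.32 ± 0.20, adjusted p = 0.173). Without the third mutant library it passed (0.57, adjusted p = 0.0307), and without the second its change was 0.03. AT3G62870 had 35.2, 32.3 and 32.6 CPM in Col and 15.1, 13.9 and 12.1 in chlorella-1, with no overlap (-1.29 ± 0.12, adjusted p = 5.43e-06). AT2G47610 held 31% ± 1.57 of the counts of the pair in 26-day Col and 57.0% ± 6.89 in chlorella-1. In the S14 family AT2G36160 changed by -1.79 ± 0.14 (adjusted p = 1.62e-06) while AT3G52580 was at 3.69 ± 0.497 and 3.49 ± 0.522 CPM (-0.08).

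**Figure D4:**
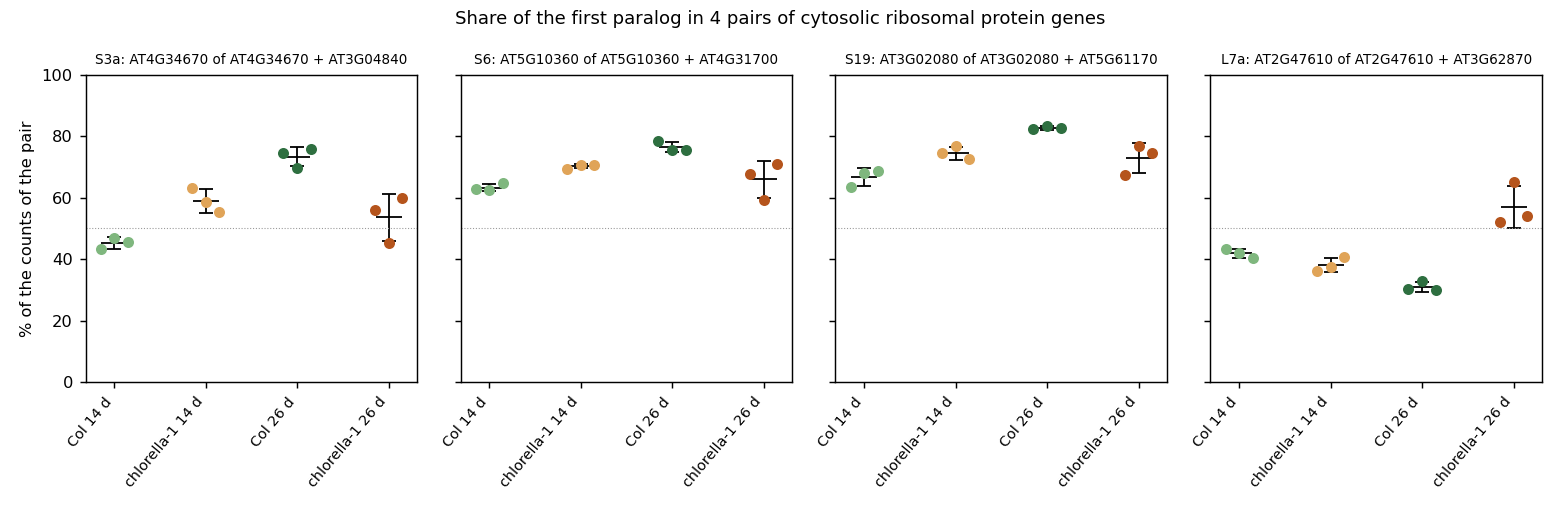
Share of the first paralog in the summed counts of a pair, per library, for the S3a, S6, S19 and L7a pairs. Points are libraries and bars the mean ± SD of 3. In Col the S3a share goes from 45.2% ± 1.85 at 14 d to 73.3% ± 3.20 at 26 d, and the L7a share is 57.0% ± 6.89 in the 26-day mutant against 31% ± 1.57 in Col.

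The L10 family was the exception at 26 d, with both genes among the 250 higher in chlorella-1. L10 sits where the large subunit meets the tRNAs and joins the particle late in its assembly. RPL10B (AT1G26910, chr1:9321650-9323028, plus strand) had 0.853, 0.978 and 0.732 CPM in 14-day Col, 0.803, 1.17 and 1.12 in the 14-day mutant, 0.703, 0.783 and 0.936 in 26-day Col and 14.4, 23.2 and 14.1 in the 26-day mutant. It was near 1 CPM in 9 libraries, whose groups overlap, and far above them in the 3 mutant libraries at 26 d. The change between genotypes at 26 d was 4.41 ± 0.26 (adjusted p = 3.71e-07) and the difference in the age change 4.14 ± 0.35 (adjusted p = 1.49e-05). Without the second mutant library, the highest, the change was 4.14.

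SAC52 (AT1G14320, chr1:4888114-4889704, plus strand), also known as RPL10A and found as a suppressor of the dwarfism of a polyamine mutant, had 52.0, 47.8 and 44.9 CPM in 14-day Col, 29.9, 29.6 and 34.4 in the 14-day mutant, 47.3, 52.1 and 41.4 in 26-day Col and 59.1, 93.5 and 63.4 in the 26-day mutant. The mutant libraries lie below Col at 14 d and above it at 26 d. The difference in the age change was 1.24 ± 0.26 (adjusted p = 0.00289), and the change at 26 d alone 0.62 ± 0.18 (adjusted p = 0.0112). The latter did not pass without the third Col library at 26 d (0.53, adjusted p = 0.0584) or in a fit of only the groups compared (0.62, adjusted p = 0.0595), also with the replicate block (0.60, adjusted p = 0.0742). It was 0.38 without the second mutant library. Among the 153 cytosolic genes taken here, SAC52 had the highest level in chlorella-1 at 26 d, at 56.9 CPM per kb. SAG24, described next, is not among the 153.

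The third L10 gene, SAG24 (AT1G66580, also called RPL10C), is not among the 250 because its description lacks the words of the rule. It had 15.4, 17 and 15.3 CPM in 14-day Col, 18.3, 12.9 and 14.3 in the 14-day mutant, 59.3, 93.2 and 70.7 in 26-day Col and 288, 519 and 243 in the 26-day mutant. It rose with age in Col (2.23 ± 0.28, adjusted p = 0.000149) and also in chlorella-1 (4.53 ± 0.31, adjusted p = 2.38e-07). RPL10B held 1.72% ± 0.425 of the counts of RPL10B and SAC52 in 26-day Col and 19.2% ± 0.866 in chlorella-1. SAG24 held 24.9% ± 1.75 of the counts of SAG24 and SAC52 in 14-day Col and 60.9% ± 4.63 in 26-day Col. In the mutant SAG24 held 32.6% ± 4.69 at 14 d and 82.3% ± 2.75 at 26 d. In RPL10B 3.34% and in SAC52 6.38% of exon windows are repeated elsewhere in the genome. The pollen markers were also high in the 26-day mutant libraries, at 14.0 to 57.5 CPM in sum. A link between them and the L10 genes was not tested.

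**Figure D5:**
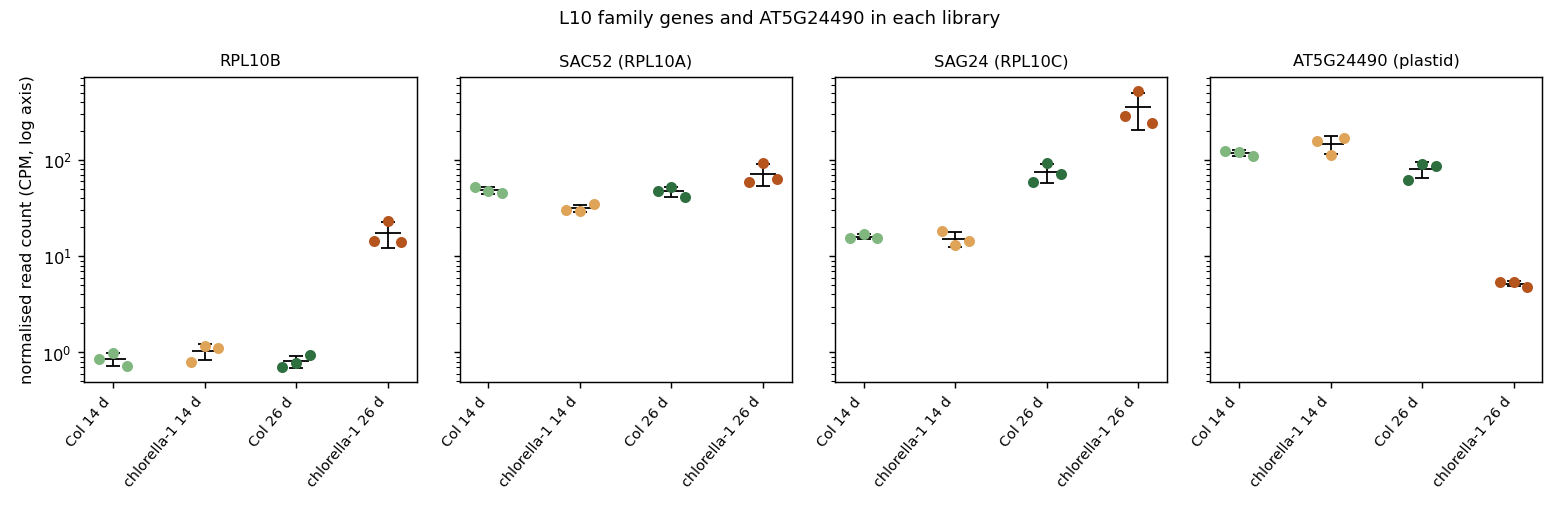
Normalised read count (CPM, log axis) of RPL10B, SAC52, SAG24 and the plastid gene AT5G24490 in each library, with mean ± SD of 3. RPL10B is near 1 CPM in 9 libraries and at 14.4, 23.2 and 14.1 in the 26-day mutant, where AT5G24490 is at 5.33, 5.42 and 4.81.

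The third cytosolic gene higher in the mutant at 26 d was RPL18AA (AT1G29970). It was classed as cytosolic L18a from its annotation alone, and this class is uncertain. It had 6.18, 6.61 and 6.64 CPM in 14-day Col, 11, 14.5 and 13.4 in 26-day Col and 22.4, 30.7 and 24.9 in the 26-day mutant, with no overlap between these groups (1.0 ± 0.15 between genotypes, adjusted p = 0.000139). Its relatives AT3G14600 and AT2G34480 were lower in chlorella-1, at -1.32 ± 0.12 (adjusted p = 3.85e-06) and -1.12 ± 0.14 (adjusted p = 3.18e-05).

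Genes for the mitochondrial ribosome, at low levels throughout, were lower in the 26-day mutant for 25 of 34, with none higher (median -1.0). Against that, 31.8% of all genes tested were lower. With age in chlorella-1 21 fell and none rose (median -0.80), where 36% of all genes fell. With age in Col 3 fell and 1 rose (median -0.11), fewer than the 20.2% and 19.3% of all genes, and for 8 the age change was more negative in the mutant, a share near the 21% of all genes. MRPL11 (AT4G35490), with the most counts of the class, had 9.40, 7.90 and 6.83 CPM in 14-day Col, 7.05, 6.71 and 6.91 in 26-day Col and 3.38, 2.61 and 3.47 in the 26-day mutant. Its Col ages overlap, and the mutant libraries at 26 d lie below them (-1.12 ± 0.16, adjusted p = 0.000107). The L22-type gene AT4G28360 fell with age in Col from 5.01 ± 0.703 to 1.67 ± 0.130 CPM (-1.58 ± 0.31, adjusted p = 0.00226). Of 7 ribosomal protein genes encoded by the mitochondrial genome, 3 were higher and 1 lower in the 26-day mutant (median 0.39). Of all genes tested, 31.5% were higher and 31.8% lower. Where a mitochondrial gene has a copy in the insertion on chromosome 2, reads of the gene and the copy cannot be told apart.

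At 14 d none of the 250 genes passed in either direction, against 0.118% of all genes higher and 0.0441% lower. Yet 231 of the 250 log2 fold changes were negative, with a median of -0.42 against 0.00 for all genes tested, and 131 had an unadjusted p under 0.05, where 4.47% of all genes were higher and 4.6% lower at that level. In a fit of only the 14 d groups, 148 were lower and 1 higher, against 8.19% and 6.4% of all genes, and DESeq2 called 53 lower and none higher, against 0.899% and 0.942%. Class medians were -0.60 for plastid, -0.45 for cytosolic and -0.26 for mitochondrial genes. The plastid L9 gene RPL9 (AT3G44890) had 48.7, 44.7 and 39.6 CPM in Col and 19.6, 21.1 and 26.7 in chlorella-1 (-0.98 ± 0.21, adjusted p = 0.120), with no overlap. It passed with DESeq2 (adjusted p = 0.00873), when the 14 d libraries were fitted alone (adjusted p = 0.000398) and without the second mutant library at 26 d (-0.98, adjusted p = 0.0408), which enters the shared estimate of spread, and 28 of the 250 then passed, all lower.

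Of the 22 genes that carry a ribosomal protein name but are not subunits, 6 were higher and 7 lower in the 26-day mutant (median -0.23), shares near the 31.5% and 31.8% of all genes tested. With age in Col 9 rose and none fell, where 19.3% of all genes rose and 20.2% fell. LOS1 (AT1G56070), the elongation factor that moves the ribosome along and the gene with the most counts of the 250, was at 222, 200.4 and 197 CPM in Col and 172, 229 and 151 in the 26-day mutant, which overlap (-0.16 ± 0.17, adjusted p = 0.403). Without the second mutant library it passed (-0.36, adjusted p = 0.0295). Subunits of eEF1B, the exchange factor of the elongation factor eEF1A, were lower: AT5G19510 changed by -1.62 ± 0.15 (adjusted p = 5.05e-06) and AT1G30230 by -1.54 ± 0.20 (adjusted p = 6.15e-05).

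The highest log2 fold change among these 22 was that of AT5G15260, described as an L34e superfamily protein. It had 3.29, 4.15 and 4.69 CPM in 14-day Col, 8.55, 6.95 and 7.58 in 26-day Col and 102, 149.7 and 72.2 in the 26-day mutant. The mutant libraries at 26 d lie far above all others and differ among themselves (3.81 ± 0.27, adjusted p = 9.78e-07; 3.50 without the second). Among all genes tested, 31.5% were higher in the mutant at 26 d, and 19.3% rose with age in Col and 35.2% in chlorella-1. The age change was more positive in chlorella-1 for 21.2%. All 4 genes with an L18ae domain were higher in the mutant at 26 d, rose with age in both genotypes and rose more in the mutant. Of these, AT1G53560 had 6.78, 7.20 and 6.39 CPM in 14-day Col, 11.9, 12 and 11.4 in 26-day Col and 31.7, 45.7 and 31.2 in the 26-day mutant (1.62 ± 0.16, adjusted p = 9.02e-06). AT3G22980, with a domain of elongation factor G, changed by 1.76 ± 0.23 (adjusted p = 5.37e-05).

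Of 21 cytosolic translation factors, 4 of them among the 250, 8 were lower and 3 higher in the 26-day mutant (median -0.46), where 31.8% of all genes tested were lower and 31.5% higher. ELF5A-3 (AT1G69410), a factor that helps ribosomes past stalling sequences, had 46.7, 47.1 and 49.7 CPM in Col and 185, 231 and 183 in chlorella-1 (2.06 ± 0.15, adjusted p = 9.28e-07), and the RNA helicase EIF4A-2 (AT1G54270) changed by 1.63 ± 0.22 (adjusted p = 6.29e-05). Of 27 ribosome biogenesis genes, 1 of them among the 250, 7 rose and none fell with age in Col (median 0.33), where 19.3% of all genes rose and 20.2% fell, and 14 were lower and 2 higher in the mutant at 26 d (median -0.77). FIB1 (AT5G52470), the fibrillarin that methylates ribosomal RNA, rose in Col from 11.1 ± 0.983 to 17.4 ± 3.72 CPM (adjusted p = 0.00821) and was at 7.70 ± 0.895 in the 26-day mutant (-1.18 ± 0.16 between genotypes, adjusted p = 8.70e-05).

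Of 7 genes of the TOR pathway, 4 were higher and 1 lower in the 26-day mutant (median 0.39). Of all genes tested, 31.5% were higher and 31.8% lower. S6K2 (AT3G08720), a kinase of S6, had 2.74, 1.42 and 2.33 CPM in 14-day Col, 11.9, 10.8 and 11.8 in 26-day Col and 162, 225 and 94.0 in the 26-day mutant. It rose with age in Col (2.41 ± 0.31, adjusted p = 0.000170) and was higher in the 26-day mutant (3.80 ± 0.33, adjusted p = 2.96e-06). The related kinase gene AT3G08730 had 19.8, 23.7 and 20.4 CPM in Col and 141, 161 and 69.3 in the 26-day mutant (2.54 ± 0.26, adjusted p = 9.15e-06). Transcripts of both S6 kinases were thus higher in the 26-day mutant, where both S6 genes were lower in the fit over all groups.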

How the data were processed

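Leaf total RNA depleted of ribosomal RNA was sequenced in 12 libraries, 3 for each of the 4 groups given by the labels. The deposited table holds whole-number read counts per gene, made by the authors. STAR, HISAT2, HTSeq, StringTie, DESeq2 and the build TAIR10 are named per the submitters' processing notes. Which of these made the counts, and whether counting used strand, is not given in the sources used here, so reads of genes that overlap on opposite strands may not be separated. The 12 columns of FPKM values were not used. The 50 rows without a gene name, 0.0771% to 0.216% of counts, were left out.

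Counts were tested with edgeR 4.0.16 (R 4.3.3): TMM scaling, genes kept by filterByExpr, 1 quasi-likelihood fit over all 4 groups, and Benjamini-Hochberg adjustment over 20398 genes. The call threshold was an adjusted p of 0.05. Fold changes are log2 with standard errors, CPM values use the scaled library sizes, and spreads are SD over 3 libraries. The procedure was tested on simulated data. Alternatives were DESeq2 1.42.0, other scalings and filters, fits of only the groups compared, a replicate block, each library left out, and all rows of the rule. The deviations of libraries with the same replicate number were correlated at -0.131 to 0.146, and the numbers were not used as pairs. Whether they mark shared plants or days is not given by the labels.

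The 250 genes, the gene lists and the tests were chosen with earlier results of these data known. Classes were set by hand from general knowledge and annotation notes after the files had been seen. Promoter windows and coordinates come from RefSeq's TAIR10.1. The share of repeated sequence counts windows of 31 bases. Per comparison and class, named genes are up to 3 called genes with the highest and 3 with the lowest log2 fold change, with groups that do not overlap and at least 5 CPM on average in a group; genes listed for their known roles and divergent paralogs were added, and others named were chosen after their values were seen. Not all genes that the rule selects are reported here.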

Additional observations from a re-analysis of the deposited data

Results flagged for a closer look

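The results below stand out because the change with age differed between the genotypes in the interaction term of the edgeR fit. It was more negative in chlorella-1 for 105 of the 250 genes and more positive for 12. Among plastid genes the log2 difference was -4.26 for AT5G24490, -2.38 for RPL4 (AT1G07320) and -1.27 for RPS1 (AT5G30510). Among cytosolic genes it was 4.14 for RPL10B (AT1G26910) and 1.24 for SAC52 (AT1G14320), the L10 genes, and -0.98 for the S6 gene EMB3010 (AT5G10360). It was -1.73 for the S3a gene AT4G34670, 0.93 for the L7a gene AT2G47610 and -0.91 for its paralog AT3G62870. The difference of AT2G47610 did not pass without the first library of Col at 14 d (0.87, adjusted p = 0.0519), the third of Col at 26 d (0.88, adjusted p = 0.0571) or the first of chlorella-1 at 14 d (0.86, adjusted p = 0.0530). For AT5G15260, with an L34e domain, it was 3.63. Groups of 3 libraries are too small for the rule used on single deviating samples, which was not applied.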

How the results depend on the processing

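No result changed its direction under any setting run, and total counts of called genes at 26 d, with age and for the difference in the age change stayed within 1.5 times of their values under every setting run. The exception was the 14 d comparison, with 0 called. DESeq2 called 53, a fit restricted to the 14 d libraries 149, and that fit with the replicate block 138. With each library left out in turn, 0 to 28 were called at 14 d in the fit over all groups and, in the restricted fit, 110, 111 and 135 without each of the Col libraries and 110, 121 and 137 without each mutant library. The count of 28 came without the second chlorella-1 library at 26 d. The cause was not tested. The restricted fits with the block or without a library, and a fit without the plastid transcript psbA, were added after seeing the data.

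Leaving out each library in the fit over all groups gave 211 to 219 calls at 26 d and 79 to 137 with age in Col. It gave 195 to 205 with age in chlorella-1 and 96 to 131 for the difference. The replicate block, although the labels do not say that the numbers pair the libraries, gave 218, 94, 205 and 111 in the same order. Fits of only the groups compared, each without a library, gave 159 to 206 calls at 26 d. They gave 104 to 138 with age in Col and 143 to 193 with age in chlorella-1. The correlation of deviations between same-numbered libraries ran from -0.131 to 0.146 over 18 pairs of libraries. Without the limit of 250 genes, 243 of 317 tested were lower and 11 higher at 26 d. Of 131 results on single genes, 103 kept their call under every setting run. Mitochondrial genes had the lowest levels, with a median of 2.92 CPM per kb in Col at 14 d, and a median coefficient of variation of 10.8% to 36.7% in the 4 groups.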

Other observations

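The 3 copies in the insertion on chromosome 2 carry the sequence of mitochondrial genes for S12 (AT2G07675), S7 (AT2G07696) and S4 (AT2G07734), and 99% to 100% of their exon windows occur elsewhere in the genome. Reads of the mitochondrial genes and of these copies can therefore not be told apart. Between genotypes at 26 d their log2 fold changes were 0.93 (adjusted p = 0.00132), -0.72 (adjusted p = 0.00382) and 0.40 (adjusted p = 0.0501) in edgeR.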
